A study of Mus musculus with 2 samples.

Results

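The genes described are 10 immediate early genes, Fos, Fosb, Fosl1, Fosl2, Jun, Junb, Jund, Egr1, Atf3 and Ier2, out of 38926 genes listed in each library. They were chosen by symbol, as a family of known genes and with earlier results of these data known, and all 10 were found in both libraries. RNA came from pleuroperitoneal folds (PPFs), the paired embryonic folds that supply connective tissue to the diaphragm, of mouse embryos of wild type genotype, taken at embryonic day 12.5, on a mixed 129s/SvlmJ-C57/BL6J strain background. All samples belong to 1 group, and its 2 libraries (replicates 1 and 2) were each made from 2 PPF pairs pooled together. The folds were dissected by hand after the heart and lungs were taken away, and were then kept in RNAlater. No other tissue, stage or handling was analysed here, so transcripts made in the embryo and transcripts made during the dissection cannot be told apart.

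Immediate early genes are transcribed within minutes of a stimulus from factors already present in the cell, so their induction does not need new protein. Fos and Jun proteins join through leucine zippers into the dimeric transcription factor AP-1. Jun proteins can pair with one another, whereas Fos proteins need a Jun partner. Egr1 is a zinc finger factor, Atf3 a stress-induced factor of the same leucine zipper class that can pair with Jun, and Ier2 a small nuclear protein gene of the early growth factor response. Several of these genes are widely known to respond to the handling of fresh tissue.

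Levels spanned 285-fold between the highest and the lowest mean, from Jun at 147 TPM (counts per base of gene, with every library brought to an equal sum) down to Fosb at 0.516 TPM, on the deposited gene lengths. With the same counts divided by GENCODE M21 exon lengths instead, the span was 589-fold, from Jund at 182 to Fosb at 0.310 TPM. Here and below, values on GENCODE lengths were neither recounted nor brought back to an equal sum. Jun, Jund and Ier2 were abundant, Fosl2 and Egr1 intermediate, and Junb, Atf3, Fosl1, Fos and Fosb low. Between the libraries, Egr1 was higher and Jund lower in replicate 2, while the other 8 genes did not pass the test of their counts. That test takes counting error as the only noise, and neither Egr1 nor Jund passed when spread between the libraries was added.

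The stretches just before the start sites of Jun, Fos, Junb and Fosb are shown. On the deposited lengths Jun was the highest and Junb the lowest of the Jun family, and Fos and Fosb were the lowest of the Fos family. The windows of Fosl2, the highest of the Fos family, and of Jund are not shown and held no match. Each stretch is the 250 bases before the RefSeq start on GRCm38.p6, written along the gene's own strand. It ends at the base before the start. Capitals mark every match to the motifs searched.

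Jun (chr4:95052223-95052472, minus strand): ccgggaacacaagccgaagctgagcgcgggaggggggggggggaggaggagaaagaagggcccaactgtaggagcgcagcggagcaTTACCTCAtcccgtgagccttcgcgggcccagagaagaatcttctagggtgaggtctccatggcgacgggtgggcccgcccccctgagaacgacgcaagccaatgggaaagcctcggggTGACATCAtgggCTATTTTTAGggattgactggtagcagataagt
Fos (chr12:85473640-85473889, plus strand): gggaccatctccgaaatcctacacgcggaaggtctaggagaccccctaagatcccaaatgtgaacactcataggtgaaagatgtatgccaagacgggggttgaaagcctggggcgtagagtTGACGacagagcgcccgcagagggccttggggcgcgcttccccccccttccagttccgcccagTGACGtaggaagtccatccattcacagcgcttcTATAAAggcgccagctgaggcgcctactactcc
Junb (chr8:84978749-84978998, minus strand): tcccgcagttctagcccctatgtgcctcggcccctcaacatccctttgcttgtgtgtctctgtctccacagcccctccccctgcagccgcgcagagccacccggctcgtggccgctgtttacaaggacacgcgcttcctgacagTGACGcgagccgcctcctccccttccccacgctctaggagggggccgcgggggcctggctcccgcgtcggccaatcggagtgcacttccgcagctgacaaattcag
Fosb (chr7:19310046-19310295, minus strand): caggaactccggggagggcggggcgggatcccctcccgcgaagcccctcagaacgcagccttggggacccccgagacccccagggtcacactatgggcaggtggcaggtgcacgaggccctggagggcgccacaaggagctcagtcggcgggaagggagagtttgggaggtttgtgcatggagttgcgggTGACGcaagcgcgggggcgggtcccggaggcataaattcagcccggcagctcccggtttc

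The motifs, searched on both strands, were the cyclic AMP response element TGACGTCA and its core TGACG, which lies inside it, the AP-1 site TGANTCA, the variants TGACATCA, TTACCTCA and TTACGTCA, the MEF2 site, the TATA box TATAAA, the Egr site GCGTGGGCG and the CArG box of serum response factor. They were picked from general knowledge of these promoters, so matches in these genes were likely beforehand and test nothing. The shares over all windows, here and below, are given for scale only. The Jun window held TTACCTCA at -164 to -157 and TGACATCA at -45 to -38, counted back from -1 at the base before the start, and a MEF2 site at -33 to -24. The same motifs were present in 0.728%, 2.93% and 2.92% of the 32851 RefSeq windows of this length. The Fos window held TGACG at -129 to -125 and at -66 to -62, and TATAAA at -33 to -28. Junb held TGACG at -106 to -102 and Fosb at -60 to -56. The core TGACG was present in 17.8% of all windows and TATAAA in 12.4%.

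Windows were searched for 7 of the 10 genes. Fosl1 and Ier2 had no RefSeq window on hand, and Egr1, on chromosome 18, was left out of the search. The Atf3 window held a MEF2 site at -22 to -13 and TTACGTCA at -10 to -3, the latter overlapping TGACG on the other strand and present in 0.447% of windows. The Fosl2 and Jund windows held none of these letters. No window of these 7 genes held TGACGTCA (1.55% of all windows), TGANTCA (6.75%), GCGTGGGCG (0.536%) or a CArG box (1.47%), which says only that the letters are not in the 250 bases searched. The Jund start used by RefSeq and by the deposited gene model lies 1210 bases upstream of the start in the GENCODE M21 annotation. The windows of Jun, Fos, Junb and Fosb were 61.2%, 58.4%, 66.4% and 68.8% G and C, against a median of 52.4% over all windows, while that of Jund was 47.6%.

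Replicate 1 had 26370253 counts in total and replicate 2 had 23255957, of which the 10 genes together held 9275 and 7601. Of the 10 genes, 9 had at least 1 TPM in both libraries, the level called expressed here. The same holds for 44.4% of all listed features and 63.0% of protein-coding genes. Across all tested features, the median log2 ratio of replicate 2 to replicate 1 was -0.014. Values below are given per library, with means ± SD over n = 2, and intervals cover counting error only. That the libraries came from separate embryos rests on the submitters' word for biological replicates, and fewer cells of a type and less RNA per cell cannot be told apart in such pooled tissue.

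**Figure D1:**
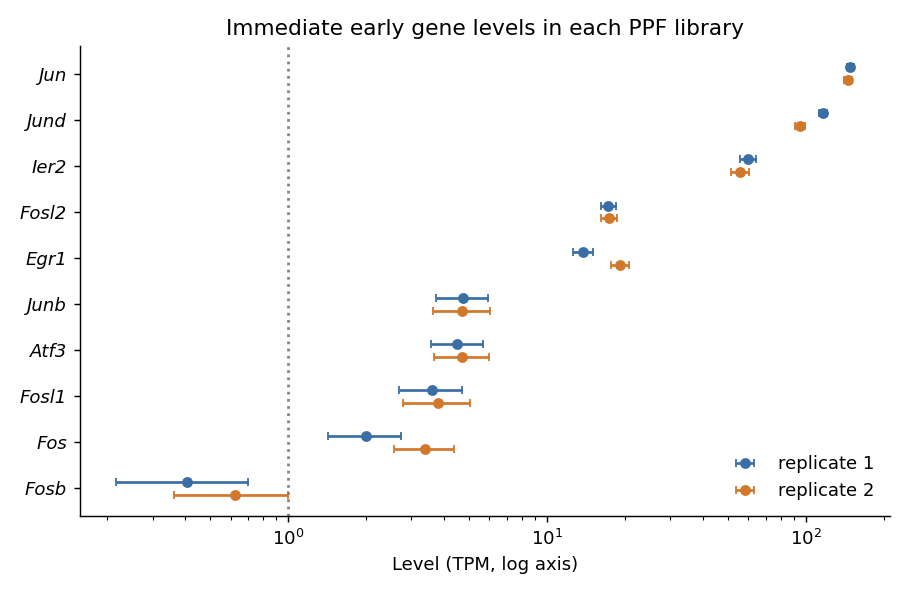
Level of each immediate early gene in TPM on a log axis, with 1 point per library (blue, replicate 1; orange, replicate 2) and bars for the 95% exact Poisson interval of the count. The dotted line marks 1 TPM. Jun, Jund and Ier2 lie above 50 TPM in both libraries and Fosb below 1 TPM in both.

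Jun partners came first in the order of levels. Jun (ENSMUSG00000052684.4, GRCm38 chromosome 4, 95049034 to 95052222, a single exon), the founding gene of the family, had 4017 counts in replicate 1 and 3381 in replicate 2. This corresponds to 148 and 146 TPM, a mean of 147 ± 1.85 TPM (SD, n = 2). The libraries were nearly equal, and Jun stood above 92.4% of expressed protein-coding genes, whose median was 26.9 TPM. Its log2 ratio of replicate 2 to replicate 1 was -0.06 (95% interval -0.13 to 0.002), short of the threshold in the exact binomial test (adjusted p = 0.199).

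Jund (chromosome 8, 70697739 to 70700616), which encodes the family member usually described as constitutively present, had 2847 and 1986 counts, or 117 and 94.9 TPM (106 ± 15.3 TPM, SD, n = 2). Replicate 1 was the higher library. Junb (chromosome 8, 84976909 to 84978748), a strongly inducible member that can oppose Jun, had 74 and 63 counts, or 4.74 and 4.71 TPM (4.73 ± 0.0211 TPM, SD, n = 2). Both libraries placed Junb far below its relatives. Of the summed Jun family TPM, Junb held 1.76% and 1.92%, Jund 43.2% and 38.7%, and Jun 55.0% and 59.4%.

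The Fos family was low in comparison. Fosl2 (chromosome 5, 32136472 to 32157831), which encodes Fra-2, had 857 and 739 counts, or 17.3 and 17.4 TPM (17.3 ± 0.0794 TPM, SD, n = 2). It was the leading Fos partner in both libraries, with 74.2% and 69.0% of the family's summed TPM. Fosl1 (chromosome 19, 5447703 to 5455945), which encodes Fra-1, had 52 and 47 counts, or 3.59 and 3.79 TPM (3.69 ± 0.140 TPM, SD, n = 2).

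Fos itself (ENSMUSG00000021250.13, chromosome 12, 85473890 to 85477273, 4 exons) had 40 counts in replicate 1 and 58 in replicate 2. Its level was 2.004 TPM in replicate 1 (95% exact Poisson interval 1.43 to 2.73) and 3.39 TPM in replicate 2 (2.58 to 4.39). Replicate 2 was higher, and the intervals of the 2 libraries overlapped slightly. Fos stood above only 8.10% of expressed protein-coding genes. Fosb (chromosome 7, 19302721 to 19310045), with 13 and 17 counts, or 0.408 and 0.623 TPM, was the only one of the 10 genes under 1 TPM.

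Summed over families, Jun genes reached 270 and 245 TPM and Fos genes 23.3 and 25.2 TPM. The Jun family therefore held 92.1% of this sum in replicate 1 and 90.7% in replicate 2, a mean of 91.4% ± 0.964 (SD, n = 2). Jun transcripts outnumbered Fos transcripts per length by 11.6-fold and 9.75-fold on the deposited lengths. The same ratio was 22.5-fold and 18.0-fold with the same counts over GENCODE M21 exon lengths, and 7.21-fold and 6.31-fold on counts.

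The remaining genes fell between these extremes. Ier2 (chromosome 8, 84661331 to 84662852) had 773 and 615 counts, or 59.9 and 55.6 TPM (57.7 ± 3.02 TPM, SD, n = 2), next after Jun and Jund in both libraries. Egr1 (chromosome 18, 34859823 to 34864984) had 526 and 627 counts, or 13.8 and 19.2 TPM (16.5 ± 3.83 TPM, SD, n = 2). Replicate 2 was the higher library for Egr1. The 95% Poisson intervals, 12.7 to 15.1 and 17.8 to 20.8 TPM, did not overlap, but they cover counting error only. Atf3 (chromosome 1, 191170296 to 191183340) had 76 and 68 counts, or 4.51 and 4.72 TPM (4.61 ± 0.142 TPM, SD, n = 2).

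In the order of mean levels, the library values of Fosl2 and Egr1 overlapped, as did those of Junb and Atf3, so neither pair can be ranked. Fosl2 was above Egr1 in replicate 1 and below it in replicate 2. On the deposited lengths the other 7 neighbouring pairs kept apart in both libraries, the closest being Atf3 over Fosl1 at 1.25-fold, Fosl1 over Fos at 1.37-fold and Jun over Jund at 1.39-fold. The Atf3, Fosl1 and Fos levels rest on 40 to 76 counts per library, and in each library the Poisson intervals of Atf3 and Fosl1 overlap, as do those of Fosl1 and Fos.

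The order of Jun and Jund, and of 3 other neighbouring pairs, depended on the gene model. The deposited Jund model is 2878 bases long, while the single GENCODE M21 exon, from 70698949 to 70700616, is 1668 bases long. With the same counts over the GENCODE length, Jund stood at 201 and 164 TPM, above Jun at 148 and 146 TPM, in both libraries. How many Jund counts fell in the upstream 1210 bases cannot be read from the files. Counts were not remade for the GENCODE models, so the shifts follow from the division alone. Jun, Fos, Egr1 and Ier2 have the same length in both models. For Fosl2 (5855 against 9680 bases), Fosb (3751 against 6243), Junb (1840 against 2301), Fosl1 (1707 against 2033) and Atf3 (1984 against 2154), GENCODE holds exon bases outside the deposited length, and dividing by it moved each gene down. Egr1, at 13.8 and 19.2 TPM, then stood above Fosl2 at 10.4 and 10.5 TPM in both libraries, and Atf3, at 4.16 and 4.34 TPM, above Junb at 3.79 and 3.77 TPM. Fosl1, at 3.01 and 3.18 TPM, then stood above Fos in replicate 1 and below it in replicate 2.

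**Figure D2:**
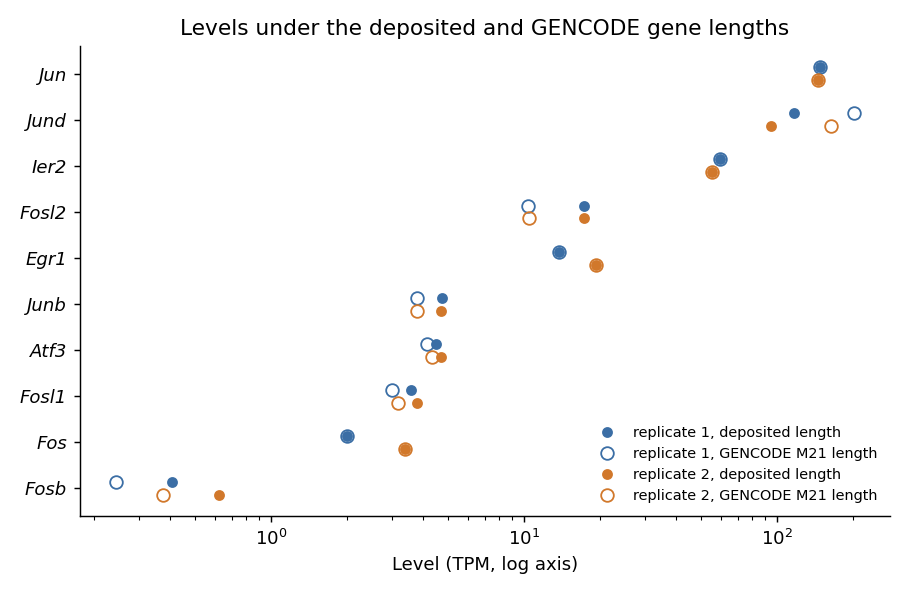
Levels in TPM on a log axis when the deposited counts are divided by the deposited gene length (filled points) and by the GENCODE M21 exon length (open points), for replicate 1 (blue) and replicate 2 (orange). Jund moves from below Jun to above it, from 117 to 201 TPM in replicate 1 and from 94.9 to 164 TPM in replicate 2.

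Other features overlap 4 of these genes, in the deposited models for Jund and Jun, and only in GENCODE M21 for Fosl1 and Junb. Gm11175, annotated antisense to Jund and lying inside it (chromosome 8, 70699538 to 70700080), had 1000 and 664 counts, or 1.84 and 1.22 counts per base. Jund had 0.989 and 0.690 counts per base over its deposited length and 1.71 and 1.19 over the GENCODE length. Whether the counting used strand is not given in the sources, so reads of Jund and Gm11175 cannot be told apart. BC042782, which starts inside Jun at 95051534, had 389 and 293 counts, which per base was 0.0750 and 0.0671 times the value of Jun. GENCODE M21 places 57.2% of the exon bases of Fosl1 within Ccdc85b on the other strand, although the deposited Ccdc85b model does not reach Fosl1. Ccdc85b had 344 and 244 counts against 52 and 47 for Fosl1, and its part in the Fosl1 counts was not tested. GENCODE M21 likewise places 7.52% of the exon bases of Junb (173 bases) within Prdx2, and these lie outside the deposited Junb span.

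Of the 10 genes, 2 differed between the libraries in the exact two-sided binomial test at an adjusted p under 0.05, against 17.5% of the 19433 features tested, and 1 lay in each direction. The test compares these 2 libraries with counting error as the only noise, and it says nothing of a condition. In the higher direction 8.85% of features were called, and in the lower direction 8.65%. Among features of 1000 to 10000 counts over both libraries, where Jund and Egr1 lie, the share was 27.0%. No member differed by 2-fold (0 of 10, against 1.26% of features). With the edgeR exact test and the spread between libraries included, the count by 2-fold was again 0. An unadjusted exact binomial p under 0.05 was reached by 3 genes. The share of features at that unadjusted level was not computed. It is no smaller than the 17.5% called after adjustment, so the 3 are not read as a result. The median log2 ratio of the 10 genes was -0.002, and the median size of the ratio, whatever its sign, 0.10, against 0.14 over all tested features.

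Egr1 was higher in replicate 2 by 1.35-fold, a log2 difference of 0.44 (interval 0.27 to 0.61) with an adjusted p of 6.33e-06 in the exact binomial test. Jund was lower in replicate 2 with a log2 difference of -0.34 (interval -0.42 to -0.25) and an adjusted p of 1.11e-13 in the same exact test. Gm11175, which lies inside Jund, had a log2 ratio of -0.41 (-0.55 to -0.26). Its reads cannot be told apart from those of Jund, so its ratio is no separate observation. Neither Egr1 nor Jund passed when the spread estimated between the libraries was added to the counting error (edgeR exact test, adjusted p = 0.548 and 0.974). That spread was fitted over all tested features to the same 2 libraries being compared. Differences between them thus enter it as noise, and a failure to pass does not show equal levels.

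Fos had the largest ratio among the 10 genes, 0.71 (95% interval 0.11 to 1.34), with an unadjusted p of 0.0150 and an exact binomial adjusted p of 0.0756. The interval is wide because only 98 counts stand behind it in all. Fosb, at 0.56 (-0.56 to 1.73), was less certain still. The ratios of the remaining genes had intervals that reach 0 on either side, so they give no direction: Fosl1 and Fosl2 had ratios of 0.04 (-0.56 to 0.64) and -0.03 (-0.17 to 0.11), Junb -0.05 (-0.56 to 0.46), Atf3 0.02 (-0.47 to 0.52) and Ier2 -0.15 (-0.30 to 0.009). The intervals of Jun, Jund, Junb, Fosl2, Atf3 and Ier2 lie within a 1.5-fold difference, whereas those of Fos, Fosb, Fosl1 and Egr1 reach past it.

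**Figure D3:**
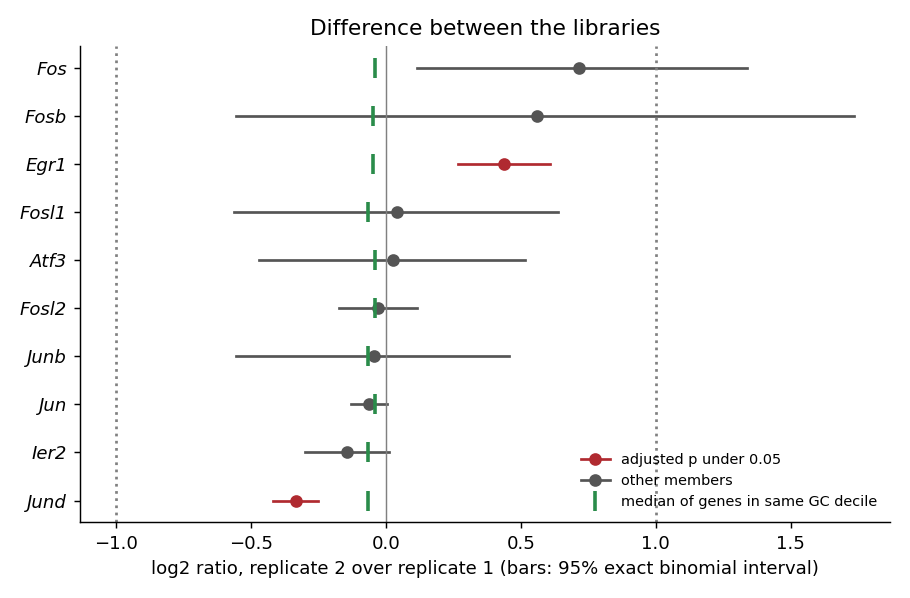
The log2 ratio of replicate 2 to replicate 1 for each immediate early gene, with the 95% exact binomial interval as a bar. Red marks an adjusted p under 0.05, green ticks the median ratio of protein-coding genes in the same decile of G and C content, and dotted lines a 2-fold difference. Egr1 at 0.44 and Jund at -0.34 are the genes marked red.

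**Figure D4:**
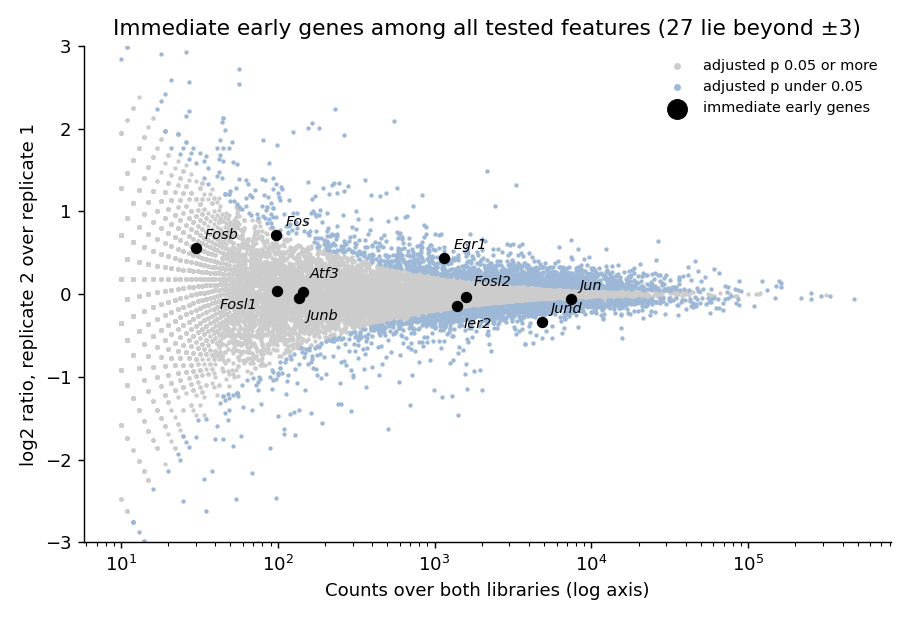
The log2 ratio of replicate 2 to replicate 1 against the counts over both libraries (log axis) for the 19433 tested features, with blue points at an adjusted p under 0.05 and the 10 immediate early genes in black. Fos and Fosb lie where counts are few and ratios scatter widely, and 27 features lie beyond the plotted range.

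Base composition and tissue content differed alongside these ratios. Protein-coding genes in the decile richest in G and C, where Jund lies (67.1% G and C), had a median log2 ratio of -0.07, and less that median Jund stood at -0.27 and Egr1, less the median of its own decile, at 0.49. For the marker lists, higher and lower in replicate 2 count genes at an adjusted p under 0.05 in the exact binomial test. Over all tested features 8.85% were higher and 8.65% lower, and 14.7% and 15.3% at 1000 counts or more. Markers of hepatoblasts, the liver precursors, led by Afp, Alb and Apoa1, were higher for 7 of 8 genes. Their summed level was 116 TPM in replicate 1 and 304 TPM in replicate 2. Neuronal markers, led by Gap43, Stmn2 and Tubb3, were higher for 6 of 8, from 43.4 to 75.7 TPM. Markers of mesonephros, gonad and adrenal, led by Emx2, Amhr2 and Pax8, were lower for 5 of 7, from 33.7 to 13.4 TPM. Neural crest markers, at 202 and 229 TPM, had 2 of 5 higher, and erythroid markers, at 5471 and 5072 TPM, 2 of 6 higher and 2 lower. Macrophage and leukocyte markers, at 432 and 394 TPM, had 1 of 7 lower, and endothelial markers, at 203 and 237 TPM, 3 of 6 higher and 1 lower. The lung and gut epithelial list had Nkx2-1 at 0 counts in both libraries and summed to 16.2 and 16.7 TPM. The part of these tissues in the Egr1 and Jund ratios was not tested. Muscle markers, at 4223 and 4333 TPM, and fibroblast markers, at 8217 and 8373 TPM, were all expressed, with 2 of 8 higher and 1 lower and with 1 of 8 higher and 3 lower, among them Myog, Actc1 and Myh3 and Col1a1, Col1a2 and Col3a1. The mesothelial markers, led by Aldh1a2, Upk3b and Podxl, summed to 753 and 776 TPM, with 1 of 6 higher.

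Other immediate early transcription factors ran from no counts for Egr4 to the level of Myc. Of 16 such genes 12 were expressed, with a median of 10.9 TPM against 10.6 TPM for the 10 genes studied. Myc, the growth regulator, stood at 78.4 and 85.5 TPM, the Krüppel-like gene Klf6 at 63.4 and 66.5 TPM and the leucine zipper gene Nfil3 at 32.1 and 28.9 TPM. The paralogs of Egr1 were scarce: Egr2 had 9 and 12 counts, Egr3 9 and 16, and Egr4 none in either library, which allows up to 0.165 and 0.193 TPM at 3 counts per library. Egr2, Egr3 and Bhlhe40 were named after their values were seen. In the exact binomial test 2 of the 15 tested genes were higher in replicate 2, Klf4 by a log2 ratio of 0.73 (0.49 to 0.97, adjusted p = 3.02e-08) and the orphan nuclear receptor gene Nr4a2 by 0.40 (0.12 to 0.68, adjusted p = 0.0253), and 1, Bhlhe40, was lower. For this list and the effector, kinase and leucine zipper lists that follow, the shares called are to be read against 8.85% higher and 8.65% lower over all tested features, and 13.1% and 13.9% at 1000 to 10000 counts.

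**Figure D5:**
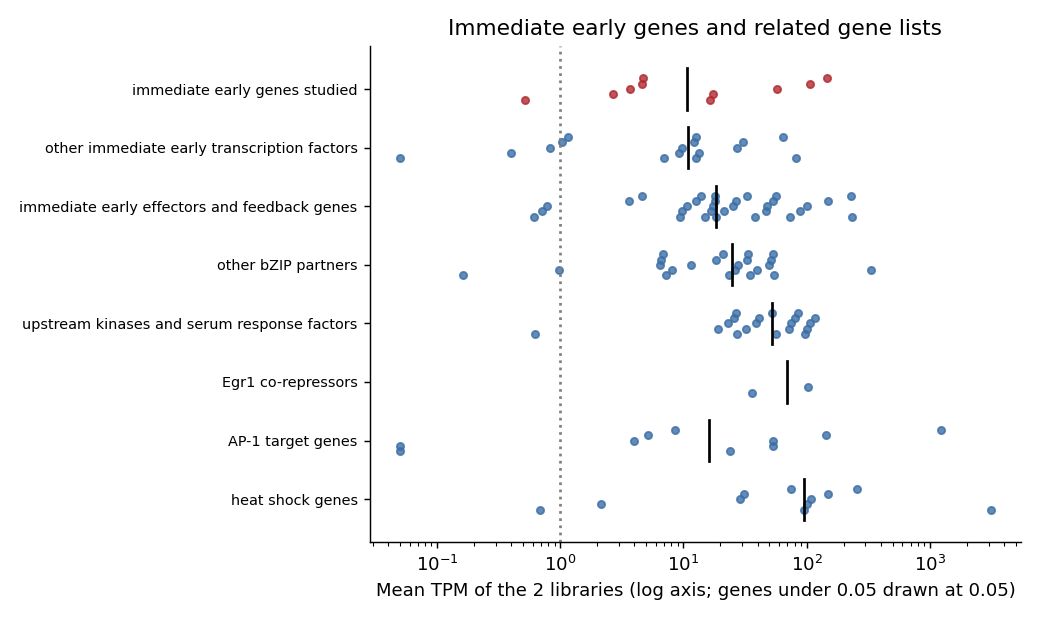
Mean TPM of the 2 libraries on a log axis for the 10 immediate early genes (red) and the genes of 7 related lists (blue), with a black bar at each list's median and a dotted line at 1 TPM. The immediate early genes and the other immediate early transcription factors have medians of 10.6 and 10.9 TPM, and the heat shock genes one of 95.9 TPM.

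Effectors and feedback genes of the early response were expressed in 28 of 31 cases, with a median of 18.3 TPM. Zfp36l1, which encodes an mRNA decay factor, led at 219 and 245 TPM, followed by the kinase gene Plk2 at 214 and 245 TPM and the survival gene Mcl1 at 151 and 148 TPM. Cxcl1, a chemokine gene, had 3 and 6 counts. Of 30 tested genes 3 were higher in replicate 2 and 3 lower, the extremes being the matrix gene Thbs1 (log2 ratio 0.54, 0.48 to 0.61; exact binomial adjusted p = 1.23e-62) and the growth arrest gene Gadd45b (-0.47, -0.66 to -0.28; exact binomial adjusted p = 1.74e-05).

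Other leucine zipper factors, many of them possible AP-1 partners, were expressed in 20 of 22 cases, with a median of 24.7 TPM. Atf4, the stress response regulator, led at 334 and 331 TPM, above Jun in both libraries, ahead of Atf5 at 53.2 and 56.5 TPM and Atf7 at 45.6 and 61.7 TPM. Mafa had 3 counts and 0. Of 21 tested genes 1 was higher in replicate 2 and 2 were lower. Atf7 was the higher gene, by 0.40 (0.26 to 0.54, exact binomial adjusted p = 4.99e-07). Batf, an AP-1 gene of leukocytes, had 70 and 31 counts and was 1 of the 2 lower genes. Its ratio was -0.98 (-1.65 to -0.36, exact binomial adjusted p = 0.0110).

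The kinases and serum response factors that switch on immediate early genes were expressed in 18 of 19 cases, with a median of 52.7 TPM. Among the highest were the kinase genes Mapk3 at 109 and 106 TPM and Map2k2 at 106 and 96.7 TPM. The neural kinase gene Mapk10 was lowest at 0.581 and 0.666 TPM. In replicate 2, 3 of the 19 were higher, among them the serum response cofactor gene Mkl2 at 0.22 (0.12 to 0.31), and Map2k2 was lower at -0.17 (-0.25 to -0.10). The Egr1 co-repressor genes Nab2, at 106 and 98.9 TPM, and Nab1, at 34.7 and 37.5 TPM, stood above Egr1 in both libraries. Nab2 was lower in replicate 2, with a log2 ratio of -0.14 (-0.22 to -0.05, exact binomial adjusted p = 0.0103).

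Genes often cited as AP-1 targets were expressed in 8 of 10 cases, with a median of 16.3 TPM. Vim, the vimentin gene, stood at 1238 and 1236 TPM, the cyclin gene Ccnd1 at 139 and 146 TPM and the haem oxygenase gene Hmox1 at 54.5 and 52.1 TPM. Mmp3, a matrix protease gene, had no count in either library. Vim, with a log2 ratio of -0.04, was the 1 gene of 8 tested that passed the exact binomial test. It had 24523 and 20980 counts. Among features with 1000 counts or more, 15.3% were called in the lower direction, against 8.65% of all features tested.

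In the exact binomial test at an adjusted p under 0.05, 7 of 11 heat shock genes were lower in replicate 2 and none was higher. The 11 genes had a median log2 ratio of -0.14, and those not called lay in both directions. The 7 genes had 3601 to 148150 counts over both libraries, and 15.3% of features with 1000 counts or more were called in the lower direction, against 8.65% of all features tested. Dnajb1 had a log2 ratio of -0.35 (interval -0.45 to -0.26; adjusted p = 2.28e-11, exact test) and Hsph1 -0.23 (-0.29 to -0.17, exact binomial adjusted p = 2.40e-14). The most abundant were Hsp90ab1 at 3140.4 and 3130.3 TPM, Hspd1 at 266 and 243 TPM and Hspa8 at 159 and 141 TPM. The inducible Hspa1a was lowest, with 19 and 13 counts, or 0.758 and 0.605 TPM.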

How the data were processed

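Poly(A) RNA from 2 PPF libraries was analysed as deposited. STAR 2.4.0a, SAMtools 1.3, featureCounts and build mm9 are named by the authors, per the submitters' processing notes, yet 4 of the 10 members' deposited spans equal GENCODE M21 genes of GRCm38 and all 10 overlap theirs, so positions are GRCm38. The deposited raw counts are not normalised. The deposited TPM equals count per base of deposited length, scaled to a fixed sum, within 4.73e-11. Features under 200 bp held 10.5% and 10.4% of TPM.

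Ratios used counts plus 0.5 and TMM factors (edgeR 4.0.16). The exact binomial test (SciPy 1.17.1) with Benjamini-Hochberg adjustment covered the 19433 features that had 10 counts or more in the 2 libraries together. It was also run on simulated counts with known changes and counting error only. That run does not give its error rate where libraries differ by more than counting error. Intervals are 95%, binomial or Poisson, and cover counting error only, since no spread between libraries enters them. The reads carry no molecular identifiers, so reads and not molecules were counted. Alternatives were other scalings, among them DESeq2 1.42.0 size factors, other filters, pseudocounts, thresholds and gene lengths, and an edgeR test with estimated spread. The 10 genes and the other lists were chosen with earlier results of these data known. Beside the 10 genes, each list's 3 highest and lowest genes by mean TPM and up to 2 with the largest tested ratios were named by rule, and markers from the 3 highest of their lists; 1 gene under this rule is not reported here.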

Additional observations from a re-analysis of the deposited data

How the results depend on the processing

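No paired analysis was possible because the study has a single group. At 5 TPM in place of 1 TPM, 5 of the 10 genes passed in both libraries, while 1 CPM, leaving out short features, either library alone and the GENCODE lengths each gave 9. The shares of all features under these alternatives were not computed. The Jun family share was 87.1% on counts in place of TPM and 95.2% on GENCODE M21 exon lengths, an alternative chosen after seeing the data, and 90.7% to 92.1% with 1 library left out. The 2 genes called at any fold became 0 in the edgeR exact test with the common dispersion fitted to both libraries (a coefficient of variation of 7.99%), the cause being that spread added to the counting error, and calls over all features went from 3399 to 150. Calls by 2-fold over all features went from 245 to 105 in that test and to 71 with a filter of 100 counts. Over the other scalings, filters and pseudocounts the adjusted p ranged from 5.72e-14 to 2.15e-11 for Jund, 9.42e-07 to 8.42e-06 for Egr1 and 0.0613 to 0.1002 for Fos. Less the GC decile median, also added after seeing the data, Jund stood at -0.27, Egr1 at 0.49 and Fos at 0.76. Leaving out a library gives no ratio. Counts of 13 to 76 per library limit Fosb, Fos, Fosl1, Junb and Atf3.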
